A study of Mus musculus with 24 samples.

Results

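Skin and bone were compared for what the dose rate of a proton beam changed, using the 16 irradiated libraries of a series of 24. The 16 were chosen by their labels alone: every library labelled F-PRT or S-PRT, 4 for each beam in skin and 4 for each beam in bone. F-PRT is read here as FLASH proton radiotherapy, which delivers its dose at an ultra-high rate, and S-PRT as standard proton radiotherapy at a conventional dose rate. All groups came from female mice aged 10 weeks, and the other 8 libraries, 4 untreated in each tissue, are given as background levels. RNA was selected for polyA and sequenced. The labels call a group's libraries biological replicates, so n = 4 for every group mean, and p-values set a difference against the spread between these samples. The labels used here give no strain, dose or time after irradiation, nor do they state whether the skin and bone libraries of the same number came from the same mouse.

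Skin and bone respond to radiation through different cells. Skin holds a layer of dividing keratinocytes, hair follicles, sebaceous glands, fat and vessels, while the bone samples hold mineralised matrix cells and the blood-forming marrow, which is among the most radiosensitive tissues. FLASH beams are studied because they have been described to injure normal tissue less than standard beams at the same dose. Irradiated cells can release DNA and RNA into the cytosol, where sensors start type I interferon production. Interferon then acts through its receptor and a transcription factor complex that holds STAT2 and IRF9 on the promoters of antiviral genes.

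Total expected counts ran from 16.42 to 22.09 megacounts in the 8 irradiated skin libraries and from 13.83 to 17.36 megacounts in the 8 of bone. The tissue labels matched the defining markers. Krt5, a basal keratin, stood at 3549 to 13011 CPM (counts per 1e6 counts, scaled within a tissue) in skin and at 0 to 25 CPM in bone, and Col1a1, the main bone collagen, at 14310 to 28396 CPM in bone and 69.9 to 1382 CPM in skin. Skin S-PRT 4 stood apart, with a summed level of 26 endothelial genes of 25.1 CPM against 512 to 604 CPM in the other 7 irradiated skin libraries, and Pecam1, an endothelial adhesion molecule, at 1.58 CPM. The same library had the highest basal keratinocyte sum, 41698 CPM against 15260 to 18907 CPM. Skin S-PRT 1 held the most skeletal muscle RNA, with a summed level of 30 genes of 38405 CPM against 1380 to 12148 CPM in the other irradiated skin libraries. Bone F-PRT 3 led the bone libraries in muscle RNA (27390 CPM against 6554 to 18253 CPM) and was lowest in cartilage genes. For the lists and for several genes, values without these libraries are given beside the main ones. In whole tissue, fewer cells of a type and less RNA per cell cannot be told apart.

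The F-PRT minus S-PRT difference was estimated per gene on the log2 scale in skin and in bone, and then tested in 4 ways: in each tissue, as the mean of both tissues, and as the skin difference minus the bone difference (the interaction). After Benjamini-Hochberg adjustment edgeR's quasi-likelihood test called 0 of 20146 genes (0%) in each of the 4 comparisons. At an unadjusted p under 0.05 it found 1014 genes in skin (5.03%), 658 in bone (3.27%), 818 for the mean of both (4.06%) and 805 for the interaction (4%). The smallest adjusted p was 0.858 in skin, 0.109 in bone, 0.419 for the mean and 0.989 for the interaction. DESeq2 called 1 gene in skin, 1 in bone, 3 for the mean and 0 for the interaction, with 894 interaction genes at an unadjusted p under 0.05. Voom with library weights called 0 in all 4, with 1297 interaction genes at an unadjusted p under 0.05. No gene therefore passed edgeR's test, and all differences that follow are values whose adjusted p did not reach 0.05.

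The size of change that the design could see was limited. Among the 15211 genes measured in both tissues (a mean of at least 1 CPM in the 8 irradiated libraries of each), the median standard error was 0.165 log2 units in skin, 0.166 in bone and 0.235 for the interaction. The 95% interval of the interaction stayed within 2-fold either way for 10947 of these genes (72%).

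Across the genes measured in both tissues, the estimated direction of the dose-rate difference in skin said little about that in bone. Of 15211 genes, 7702 (50.6%) had the same sign in skin and bone, and the differences correlated with a Pearson r of -0.007 and a Spearman rho of 0.023 across genes, which are not independent replicates. Among the 8748 genes with a mean of at least 10 CPM in each tissue, 52% had the same sign. Their r was 0.046 and their rho 0.119. Skin and bone differences share no library. Genes with an unadjusted p under 0.05 in skin had the same sign in bone in 393 of 747 cases (52.6%). Those with an unadjusted p under 0.05 in bone had it in skin in 181 of 370 cases (48.9%), and of the 20 genes with such a p in both tissues 10 agreed in sign. Single libraries moved the figures over all 15211 genes. Without skin S-PRT 4 the share with the same sign was 45.9% and r was -0.133, and without bone F-PRT 3 r was 0.169. Of all genes tested, only 5.03% had an unadjusted p under 0.05 in skin and 3.27% in bone. Estimates that are mostly noise match in sign about as often as not, whether or not the tissues respond alike. The shares therefore cannot show that the responses of skin and bone differ.

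**Figure D1:**
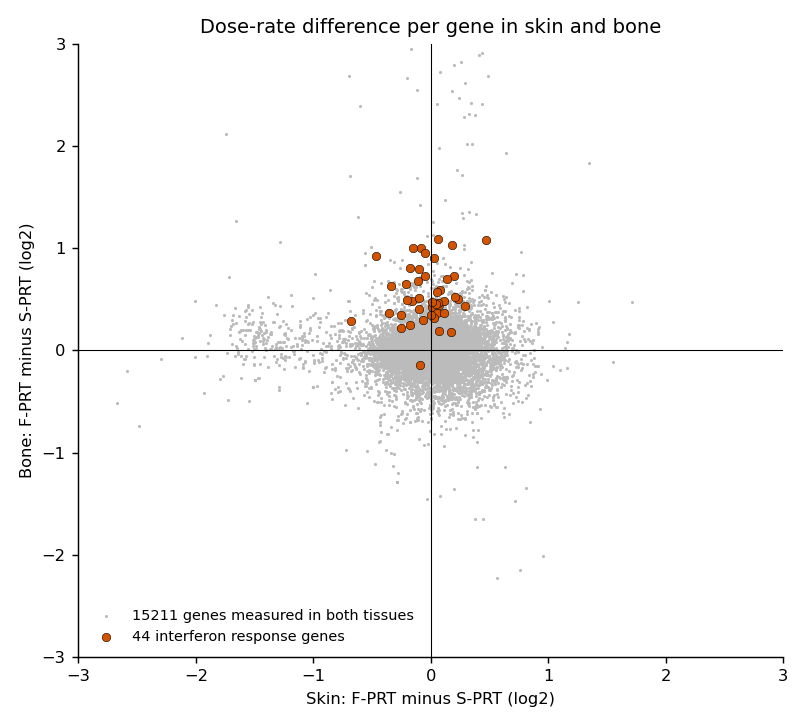
Each grey point is one of the 15211 genes measured in both tissues, with its F-PRT minus S-PRT log2 difference in skin on the x axis and in bone on the y axis, and 7 genes lie beyond the axes. The 44 interferon response genes, in orange, sit above 0 in bone for 43 genes and on both sides of 0 in skin.

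Interferon response genes were higher in F-PRT bone and, with all libraries in the fit, showed no common direction in skin. Of the 44 members, all tested, 43 were higher in F-PRT than in S-PRT bone, against 51.6% of all genes tested, with a median log2 difference of 0.487. An unadjusted p under 0.05 in that direction was found for 26 of them, against 2.1% of all genes. In skin 22 of 44 were higher, against 48.4% of all genes, and the median was 0.005. Tap1 alone had an unadjusted p under 0.05 in skin, and it was lower in F-PRT, as 2.84% of all genes were with such a p. The median of the interaction was -0.53, against -0.026 over all 20146 genes tested, and 16 members had an unadjusted p under 0.05 for it, all with the larger value in bone, against 2.28% of all genes. None of the 44 passed the adjusted test in any of the 4 comparisons.

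Averaged over the 44 genes, the level in bone was 5.61, 5.73, 5.48 and 5.78 log2 CPM in the F-PRT libraries and 5.18, 4.81, 5.25 and 5.13 in the S-PRT libraries. Every F-PRT bone library was thus above every S-PRT bone library. Untreated bone stood at 4.16, 4.54, 4.86 and 4.69, so that the highest untreated library was above the lowest S-PRT library. In skin the F-PRT libraries stood at 3.35, 3.35, 3.57 and 3.22, the S-PRT libraries at 3.63, 3.28, 3.83 and 2.34, and the untreated ones between 2.72 and 2.95. The skin groups of both beams overlapped, and skin S-PRT 4 was below every untreated library. Without skin S-PRT 4 only 4 of the 44 genes were higher in F-PRT skin, and the skin median was -0.20, with an interaction median of -0.75. In that fit 7 of the 44 had an unadjusted p under 0.05 in skin, against 1418 of all 20146 genes. Without skin S-PRT 3 the count of members higher in F-PRT skin was 33. The bone count was 43 on leaving out each library in turn. The count of members with an unadjusted p under 0.05 in bone was less stable: 17 without bone S-PRT 2 and 35 without skin S-PRT 4. Both tissues share an estimate of the spread, so a skin library can move bone p-values.

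**Figure D2:**
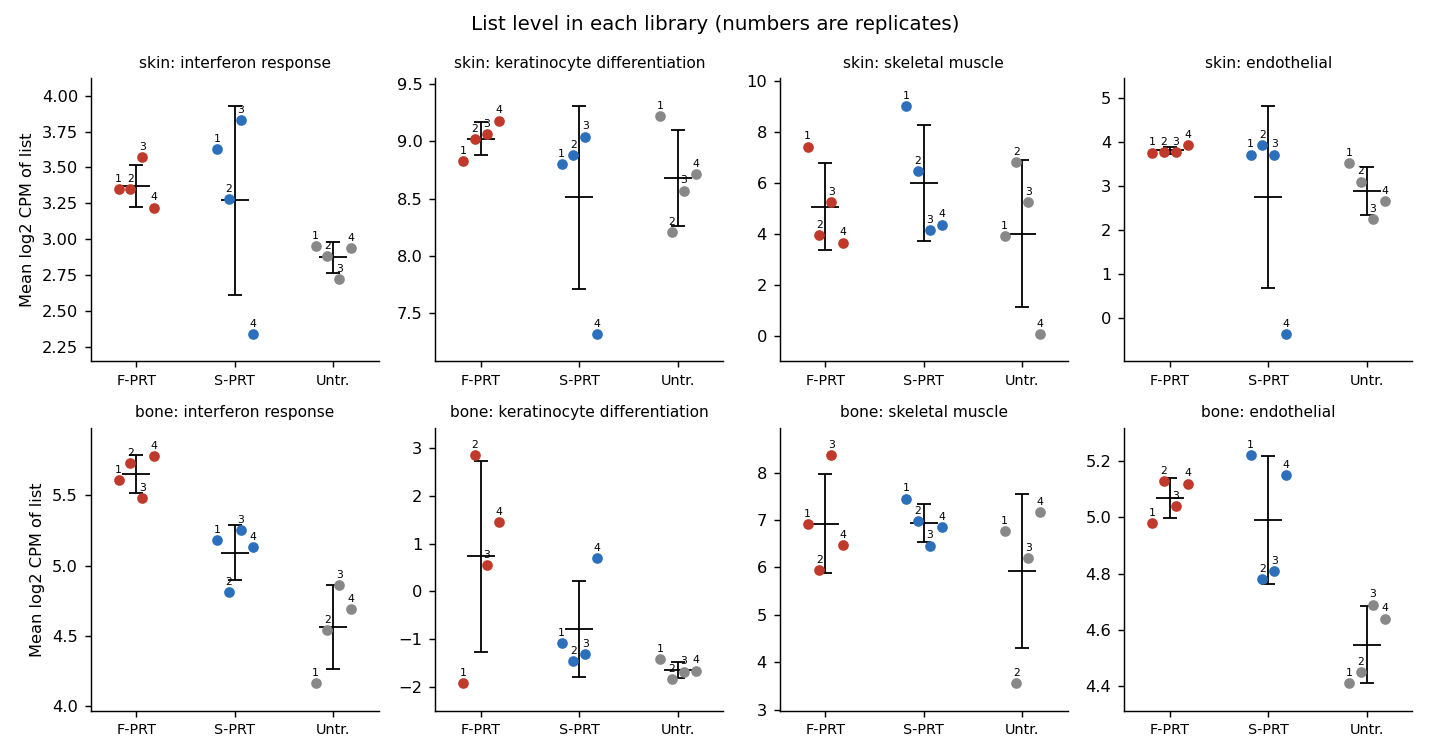
Mean log2 CPM of 4 gene lists in each library, skin above and bone below, with the replicate number beside each point and the group mean ± SD (n = 4) as bars. Interferon response genes separate F-PRT from S-PRT in bone and not in skin, skin S-PRT 4 is lowest for endothelial genes, and the keratinocyte panel of bone shows F-PRT 2, 3 and 4 and S-PRT 4 above the rest.

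Interferon-stimulated promoters carry a short element to which that complex binds. A search for its core, GAAANNGAAA on either strand, was made in RefSeq promoter windows (GRCm38.p6, 250 bases before to 50 after each gene's start). It was found for 18 of the 34 interferon genes with a window there (52.9%) and for 1079 of all 27025 genes (3.99%). Members with an unadjusted p under 0.05 in bone held it in 10 of 20 cases and the other members in 8 of 14. The windows of 6 members are shown 5′ to 3′ on the gene's strand, 60 bases each, with the matched core in capitals (TTTCNNTTTC is the same core on the other strand). They are 6 of the 10 members that held the core and had an unadjusted p under 0.05 in bone, chosen after their values were seen: 4 antiviral effectors, the modifier Isg15 and the transcription factor Stat2.
Ifit3, chr19:34583365-34583424, plus strand: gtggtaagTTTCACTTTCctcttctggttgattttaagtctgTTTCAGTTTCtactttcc
Ifit1, chr19:34640769-34640828, plus strand: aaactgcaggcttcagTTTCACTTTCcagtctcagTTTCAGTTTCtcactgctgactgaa
Isg15, chr4:156200856-156200915, minus strand: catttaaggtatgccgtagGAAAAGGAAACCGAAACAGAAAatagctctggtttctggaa
Oas1a, chr5:120907526-120907585, minus strand: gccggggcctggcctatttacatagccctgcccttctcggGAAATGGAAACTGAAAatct
Bst2, chr8:71537565-71537624, minus strand: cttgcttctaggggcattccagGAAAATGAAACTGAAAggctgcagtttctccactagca
Stat2, chr10:128270251-128270310, plus strand: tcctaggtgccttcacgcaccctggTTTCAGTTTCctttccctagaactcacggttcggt

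The ligands had few counts. Of the 15 genes Ifnb1, Ifnab and Ifna, no group total over 4 libraries exceeded 6 counts, and 4 had 0 counts in all 24 libraries. Ifnk, interferon kappa of keratinocytes, had 66, 50 and 56 counts over the F-PRT, S-PRT and untreated skin libraries and 26, 28 and 36 in bone, and Ifnz had at most 14 in a group. Ifng, the type II interferon of T and NK cells, had 39 counts over the F-PRT bone libraries, 20 over S-PRT bone and 4 over untreated bone, and 3, 5 and 3 counts in the same skin groups. These counts are too few for a fold, and none is given. Receptor chains were well counted. Ifnar1 differed by 0.04 (SE 0.08) in skin and 0.02 (SE 0.08) in bone, Ifnar2, the other type I chain, by -0.06 (SE 0.17) and 0.18 (SE 0.16), and Ifngr1, a chain of the type II receptor, by 0.08 (SE 0.12) and 0.11 (SE 0.12).

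Roles within the interferon list were set after the values were seen. With 43 of the 44 members higher in F-PRT bone, the direction of a role there is not a separate result. Of the 44, 26 had an unadjusted p under 0.05 in that direction, against 2.1% of all genes. The 5 sensors of foreign or misplaced nucleic acid were all higher in F-PRT bone. Their 5 bone differences ran from 0.41 to 0.73, 4 with an unadjusted p under 0.05, and their skin differences from -0.34 to 0.20, with 0 such. Eif2ak2 (chr17:78852564-78882573, build GRCm38), the double-stranded RNA kinase that halts translation, had the smallest bone p of any gene in this list. Its bone levels were 76, 78, 65.8 and 74.3 CPM in F-PRT and 52.8, 50, 62.4 and 55.5 CPM in S-PRT, with untreated bone at 43.7 to 53.2 CPM. Skin F-PRT stood at 23.3, 22.8, 25.5 and 22.6 CPM and skin S-PRT at 23.7, 24.2, 28.1 and 25.3 CPM. The bone groups did not overlap and the skin groups did. The log2 difference was 0.41 (SE 0.09) in bone and -0.10 (SE 0.09) in skin, and the interaction was -0.52 (95% interval -0.79 to -0.25, unadjusted p = 0.000966, adjusted p = 0.989, edgeR). Ifih1, the sensor MDA5, differed by 0.46 in bone and 0.06 in skin, and Dhx58, a regulator of RNA sensing, by 0.73 and 0.20.

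Transcription factors of the pathway had the same signs in bone. Stat2 differed by 0.51 (SE 0.14) in bone and -0.10 (SE 0.14) in skin. The 5 bone differences were 0.25 to 0.95 and the 5 skin differences -0.20 to 0.03. Irf7, the factor that amplifies type I interferon, had bone levels of 143, 156, 118 and 141 CPM in F-PRT and 85.5, 47.8, 82.1 and 73.1 CPM in S-PRT, a difference of 0.95 (SE 0.28). The bone groups did not overlap. Its skin difference was -0.05 (SE 0.29), with overlapping groups.

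All 5 regulators were higher in F-PRT bone (0.45 to 0.81), each with an unadjusted p under 0.05, against -0.18 to 0.04 in skin. Dtx3l, a ubiquitin ligase that works with Parp9, stood at 108, 117, 111 and 116 CPM in F-PRT bone and 81.1, 67.5, 88.1 and 86.3 CPM in S-PRT bone. In skin its levels were 30.6, 28.6, 34.7 and 28.6 CPM against 38.1, 33.5, 39.7 and 25.8 CPM. The bone libraries of both beams were clearly apart, while in skin S-PRT 4 lay below all F-PRT libraries and the other 3 S-PRT libraries did not. The Dtx3l interaction was -0.65 (95% interval -1.02 to -0.27, unadjusted p = 0.0021). Isg15, the ubiquitin-like modifier, differed by 0.81 in bone and -0.18 in skin.

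Among the 16 antiviral effectors 15 were higher in F-PRT bone, with a median of 0.69, and 9 were higher in F-PRT skin, with a median of 0.05. Ifit3, which binds viral RNA complexes, reached 46.2, 57.9, 39.9 and 55.1 CPM in F-PRT bone against 25.9, 14.4, 25.7 and 27.4 CPM in S-PRT bone and 5.4 to 12.5 CPM in untreated bone. These 3 bone groups did not overlap. In skin Ifit3 stood at 7.92, 8.07, 8.92 and 7.58 CPM in F-PRT and at 10.1, 6.22, 11.9 and 2.76 CPM in S-PRT, so that S-PRT lay on both sides of F-PRT. The difference was 1.09 (SE 0.31) in bone and 0.06 (SE 0.32) in skin, with an interaction of -1.03 (95% interval -1.97 to -0.09). Bst2, the tether that holds budding virions, differed by 0.68 in bone and -0.11 in skin, Oas1a, which makes the activator of RNase L, by 0.80 and -0.10, and Ifit1 by 1.00 and -0.08. Isg20, an exonuclease, was the member below 0 in bone, at -0.14 (SE 0.16). Ifit3 and Ifit3b, and the Oas1 genes, are near-identical copies among which reads may have been split.

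The 3 antigen processing genes were higher in F-PRT bone (0.22 to 0.37) and at or below 0 in skin (-0.36 to -0.00). Tap1 (chr17:34187553-34197225), which pumps peptides to MHC class I, was singled out after its values were seen. In bone it was at 124, 125, 119 and 152 CPM in F-PRT and 111, 81.9, 108 and 100 CPM in S-PRT. In skin it was at 88.6, 91.9, 100 and 103 CPM in F-PRT and 112, 103, 111 and 167 CPM in S-PRT. F-PRT was above S-PRT without overlap in bone and below it without overlap in skin, though the lowest skin S-PRT and highest skin F-PRT libraries both round to 103 CPM. The differences were 0.37 (SE 0.14) and -0.36 (SE 0.14), with an interaction of -0.73 (95% interval -1.17 to -0.30, unadjusted p = 0.00264). Skin S-PRT 4 held the highest Tap1 level, and without it the skin difference was -0.18. The 4 guanylate-binding proteins were positive in bone, at 0.30 to 0.50, with 0 at an unadjusted p under 0.05.

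Macrophage and monocyte genes and T and NK cell genes were also higher in F-PRT bone, by smaller medians. B cell genes (7 of 27 higher, median -0.095) and neutrophil granule genes (13 of 26, median 0.011) were not. Over all genes tested 51.6% were higher in F-PRT bone. Macrophage and monocyte genes were higher in F-PRT bone for 23 of 25 members (median 0.228), with sums of 3545 to 4104 CPM in F-PRT and 2256 to 3704 CPM in S-PRT, while untreated bone ranged from 1863 to 5238 CPM. T cell and NK cell genes were higher for all 15 members measured in both tissues (median 0.161). Sums over all 27 members of that list were 350 to 427 CPM in F-PRT and 229 to 367 CPM in S-PRT bone. No member of either list was at 0 counts in a bone group. Both sums overlapped between beams, and S-PRT 2, the bone library lowest in both, was also lowest in interferon genes. Without S-PRT 2 the bone medians were 0.10 for macrophage and 0.01 for T and NK cell genes, and 0.42 for interferon genes. The part of these cells in the interferon values was not tested. Epidermal RNA differed among the bone F-PRT libraries. F-PRT 1, which had Krt1 and Krt14 at 0 CPM, had an interferon level of 5.61, within the range of the other 3. The part of epidermal RNA in the interferon values was not tested either.

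The 8 genes of smallest interaction p, among named genes with at least 2 CPM in a tissue, included Eif2ak2 and Dtx3l and 3 more that were measured in both tissues. Scarb2 (chr5:92441314-92506833), a lysosomal membrane receptor, had skin levels of 120, 116, 130 and 122 CPM in F-PRT and 150, 134, 130 and 162 CPM in S-PRT. In bone it had 116, 118, 123 and 118 CPM in F-PRT and 99.2, 81.2, 100 and 105 CPM in S-PRT. The order of the beams was opposite in skin and bone, and neither tissue had an overlap, although a skin library of each beam rounds to 130 CPM. The log2 difference was -0.24 (SE 0.09) in skin and 0.30 (SE 0.09) in bone, and the interaction -0.54 (95% interval -0.82 to -0.26, unadjusted p = 0.000821, adjusted p = 0.989). Leaving out skin S-PRT 1 and 4 together brought the skin difference to -0.11 and the interaction to -0.41.

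Cln6 (chr9:62838785-62852006), another lysosome-related gene whose loss causes a neuronal storage disease, went the same way. Skin F-PRT was at 22.8, 24.1, 26.3 and 23.4 CPM and skin S-PRT at 28.5, 27.7, 31 and 37.6 CPM, well apart. Bone F-PRT was at 37.1, 42.4, 38.1 and 39.8 CPM and bone S-PRT at 37.1, 34.2, 35.5 and 33.1 CPM, apart by less than the rounding. Its differences were -0.37 (SE 0.10) and 0.17 (SE 0.10), and its interaction -0.54 (unadjusted p = 0.0014). Ogfr (chr2:180589245-180595836), the opioid growth factor receptor, was at 39.1, 41.2, 35.8 and 39.9 CPM in F-PRT bone against 31.9, 29.3, 31.3 and 31 CPM in S-PRT bone. Its skin levels overlapped, at 12.8, 15.7, 15.7 and 15.8 CPM in F-PRT and 17.9, 16.5, 17.2 and 15.7 CPM in S-PRT. The Ogfr interaction was -0.50 (unadjusted p = 0.00105). The promoter window of Ogfr held the interferon core and those of Scarb2 and Cln6 did not.

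The other 3 genes of smallest interaction p were expressed in skin and near 0 in bone, and are given without a fold. Grhl3, an epidermal barrier transcription factor, had 24 counts over the 4 F-PRT bone libraries and 1 over the S-PRT ones. Oas1f had 14 and 0, and Apol7a 13 and 3. In skin they stood at 63.1 to 92.6, 28.3 to 42.3 and 2.05 to 4.12 CPM across the irradiated libraries. Oas1f and Apol7a were lower in every F-PRT skin library than in every S-PRT one.

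**Figure D3:**
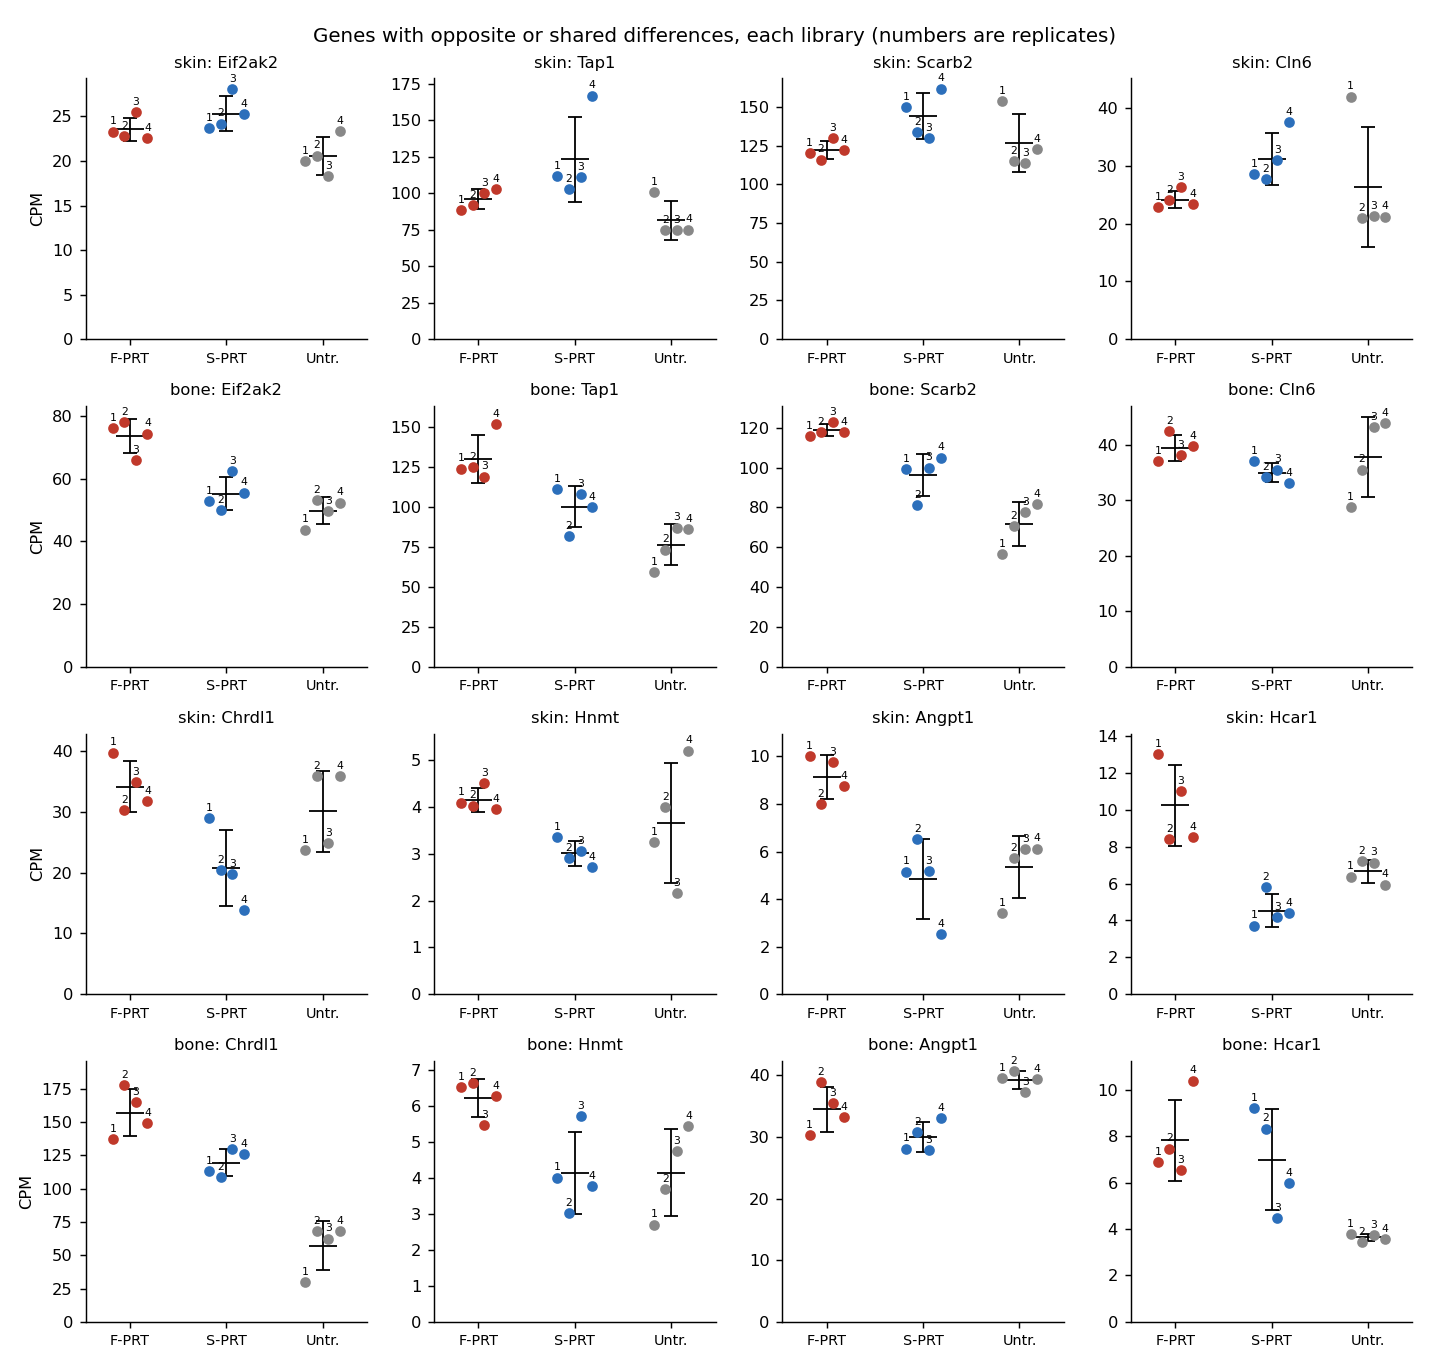
CPM in each library for 8 genes, skin above bone for each gene, from an axis that starts at 0, with replicate numbers and the group mean ± SD (n = 4). Eif2ak2, Tap1, Scarb2 and Cln6 show F-PRT above S-PRT in bone and not in skin, while Chrdl1 and Hnmt show F-PRT above S-PRT in both tissues and Angpt1 and Hcar1 mainly in skin.

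Separation of all 4 F-PRT from all 4 S-PRT libraries was seen for 417 of the 15211 genes in skin (2.74%) and for 442 in bone (2.91%). With 4 libraries against 4, some of so many genes separate by chance, and an excess over chance was not tested. Lack of overlap in a single gene is therefore given only as a description. It occurred in both tissues in the same direction for 6 genes (0.0394%), all named here after their values were seen: Chrdl1, Cd36, Neurl3 and Adh7 were higher in F-PRT, and Serinc5 and Smarca2 lower. Adh7 is among them only because its F-PRT libraries bring the bone mean over 1 CPM, so it had to differ there. Separation in both tissues occurred in opposite directions for 7 genes (0.046%), about as many as in the same direction. Of these, Scarb2, Cln6, Tap1 and Enox2 were lower in F-PRT skin and higher in F-PRT bone, Ccdc62 was higher in skin and lower in bone, and 2 were gene models without a gene name. Ccdc62 differed by 0.44 (SE 0.18) in skin and -0.40 (SE 0.18) in bone, from levels of 2.23 to 5.99 CPM across the irradiated libraries.

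The 8 genes of smallest p for the mean of both tissues, at 2 CPM or more in each, had the same direction in skin and bone, with sizes that differed. Choosing by the mean favours genes of like sign, so this is no measure of how far the tissues agree. Chrdl1 (chrX:143285674-143394262), a secreted inhibitor of bone morphogenetic proteins, was at 39.8, 30.3, 34.9 and 31.8 CPM in F-PRT skin and 29, 20.5, 19.8 and 13.8 CPM in S-PRT skin. In bone it was at 137, 178, 165 and 149 CPM in F-PRT and 113, 109, 130 and 126 CPM in S-PRT. All F-PRT libraries were higher in both tissues, and untreated skin (23.7 to 35.9 CPM) spanned both beams while untreated bone (29.9 to 68.3 CPM) lay below both. Its mean difference was 0.56 (SE 0.12, 95% interval 0.30 to 0.81, unadjusted p = 0.000296, adjusted p = 0.975), and the interaction 0.32 (95% interval -0.19 to 0.83).

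Hnmt (chr2:24002910-24049394), which inactivates histamine, had skin levels of 4.09, 4.03, 4.51 and 3.95 CPM in F-PRT and 3.35, 2.9, 3.06 and 2.71 CPM in S-PRT. Its bone levels were 6.53, 6.64, 5.46 and 6.27 CPM and 4.01, 3.03, 5.72 and 3.78 CPM. The skin groups did not overlap, and in bone S-PRT 3 reached into the F-PRT range. The differences were 0.46 in skin and 0.59 in bone (SE 0.17 in each), and the interaction -0.13 (95% interval -0.64 to 0.39). Slc52a3, a riboflavin transporter, differed by 0.34 (SE 0.13) and 0.42 (SE 0.14), and Kif9, a motor protein of cilia, by 0.32 (SE 0.16) and 0.62 (SE 0.17). Without skin S-PRT 1 and 4 their skin values were 0.17 and 0.12. Outside the 8 and named from the lists, Angptl4, an inhibitor of lipoprotein lipase, differed by 0.77 and 0.96 (SE 0.36 in each), and Ccn1, a matrix protein of the TGF-beta and YAP response, by -0.45 and -0.40 (SE 0.19 in each). The Ccn1 skin value was -0.11 without skin S-PRT 1 and 4. Within the 8, Kcnh1, a potassium channel, was lower in both, by -0.32 (SE 0.23) in skin and -1.02 (SE 0.25) in bone, and the skin value was 0.05 without skin S-PRT 1 and 4.

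The remaining 3 of the 8, Angpt1, Hcar1 and Fabp4, had larger values in skin than in bone. Angpt1 (chr15:42424723-42676977), the vessel-stabilising ligand of Tie2, was at 10, 8.01, 9.77 and 8.76 CPM in F-PRT skin and 5.16, 6.53, 5.18 and 2.54 CPM in S-PRT skin, without overlap. In bone it was at 30.3, 38.9, 35.5 and 33.2 CPM and 28.1, 30.8, 27.9 and 33 CPM, with overlap. Its differences were 0.91 (SE 0.20) and 0.20 (SE 0.19), and the interaction 0.70 (95% interval 0.13 to 1.28), or 0.44 without skin S-PRT 1 and 4. Hcar1 (chr5:123876736-123880020), the lactate receptor of fat cells, stood at 13, 8.41, 11 and 8.53 CPM in F-PRT skin against 3.72, 5.81, 4.17 and 4.4 CPM in S-PRT skin. Its skin difference was 1.18 (SE 0.24, 2.26-fold, adjusted p = 0.858 with edgeR and 0.028 with DESeq2), and its bone difference 0.16 (SE 0.24). Fabp4, the fatty acid carrier of fat cells, differed by 0.89 (SE 0.21) and 0.27 (SE 0.21).

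Igha, the constant region of the IgA heavy chain, had the smallest p in bone and was named after its values were seen, since antibody genes fell outside the naming rule. In bone it was at 170, 132, 339 and 305 CPM in F-PRT and 55.5, 66.6, 62.4 and 70 CPM in S-PRT, with untreated bone at 22.5, 54.8, 60.9 and 201 CPM. F-PRT bone was well above S-PRT bone, while untreated bone reached from below S-PRT into the F-PRT range. The difference was 1.89 (SE 0.27, 3.72-fold, adjusted p = 0.109 with edgeR and 2.73e-06 with DESeq2). In skin Igha lay between 0.226 and 1.33 CPM in the irradiated libraries, too low for a comparison. Adh7, an alcohol dehydrogenase that also oxidises retinol, differed by 0.28 (SE 0.14) in skin, at 45.8 to 65.5 CPM, and by 1.03 (SE 0.20) in bone, at 0.723 to 2.65 CPM. The highest bone level was in F-PRT 2, which held the most epidermal RNA, and without skin S-PRT 4 and bone F-PRT 2 and 3 the bone difference was 0.67. The part of epidermal RNA in it was not tested. DESeq2 gave the mean of both Adh7 differences an adjusted p of 0.0245 (edgeR 0.471).

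Genes of fat and sterol metabolism had larger medians in skin than in bone, and 0 members passed the adjusted test for the interaction. Of 23 adipocyte genes 20 were higher in F-PRT skin (median 0.376), 7 of them with an unadjusted p under 0.05, against 2.19% of all genes. In bone 15 were higher (median 0.031), with 0 such. Of 24 cholesterol synthesis genes 21 were higher in F-PRT skin (median 0.259), 8 with an unadjusted p under 0.05, and 14 in bone (median 0.032), with 0. Skin S-PRT 4 was the lowest irradiated library in both lists, and without it the skin medians were 0.23 for adipocyte genes and 0.15 for cholesterol genes. The adipocyte median in skin was 0.75 without skin S-PRT 2, and that in bone 0.22 without bone S-PRT 1. Without skin S-PRT 4 and bone F-PRT 2 and 3 the adipocyte medians were 0.23 in skin and 0.17 in bone, with an interaction median of 0.02 against 0.36 with all libraries. Summed adipocyte levels were 5373 to 7931 CPM in F-PRT skin and 2937 to 8624 CPM in S-PRT skin, with all 24 summed genes detected in each group. Of 10 satellite and noncoding small RNA models 9 were higher in F-PRT skin (median 0.144) and 0 in F-PRT bone (median -0.218). Over all genes measured in both tissues these shares were 45.5% and 52.4%. Their interaction median was 0.448, with 0 members at an unadjusted p under 0.05. List levels in bone were 9.45 to 9.67 log2 CPM in F-PRT and 9.71 to 9.88 log2 CPM in S-PRT. Skin levels overlapped, and without skin S-PRT 1 the skin median was -0.01.

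**Figure D4:**
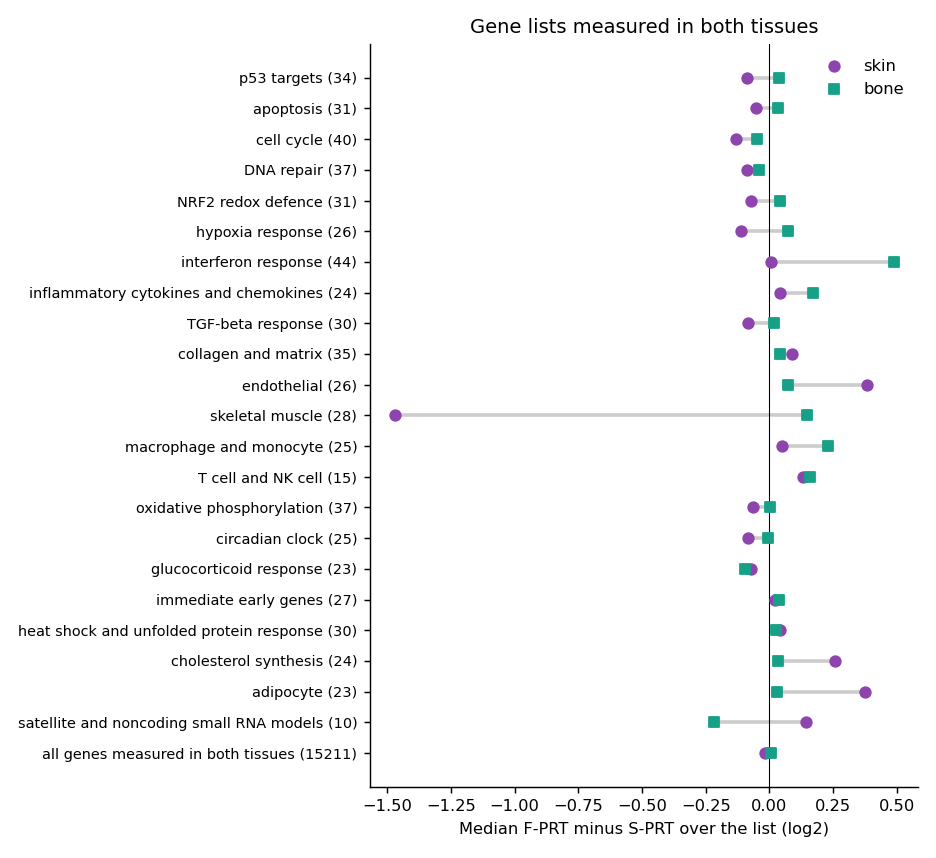
Median F-PRT minus S-PRT log2 difference of the 22 gene lists read in both tissues and of all genes measured in both, skin as circles and bone as squares, with the number of genes tested in brackets. Interferon response stands at 0.005 in skin and 0.487 in bone, skeletal muscle at -1.47 in skin, and most other lists lie within 0.2 of 0 in both. Satellite and noncoding small RNA models stand at 0.144 in skin and -0.218 in bone.

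The lists of damage response genes had small medians in each tissue, of opposite sign in skin and bone for p53 targets. Cdkn1a, the p53 target that halts the cell cycle, was at 309, 332, 330 and 337 CPM in F-PRT skin and 335, 322, 334 and 301 CPM in S-PRT skin. In bone it was at 109, 139, 99 and 168 CPM and 120, 129, 119 and 153 CPM, with untreated bone at 14.9 to 18.8 CPM. The groups of both beams overlapped in skin and bone, and the interaction was 0.03 (95% interval -0.38 to 0.45). Mdm2, which degrades p53, had an interaction of 0.03 (95% interval -0.24 to 0.29). Of the 34 p53 targets 9 were higher in F-PRT skin (median -0.087) and 24 in F-PRT bone (median 0.037). Over all genes measured in both tissues these shares were 45.5% and 52.4%. The sign was the same in both for 17 targets, while 16 were lower in skin and higher in bone and 1 the reverse. Over all 15211 genes measured in both, these counts were 7702, 4275 and 3234. The interaction of the targets was positive for 7 of 34, against 43.9% of all genes measured in both. Its median of -0.114 ran from -0.18 to -0.04 over 21 alternatives. The skin median of the p53 targets was -0.03 without skin S-PRT 4 and -0.00 without skin S-PRT 1 and 4. Cell cycle genes had medians of -0.13 in skin and -0.048 in bone, and the skin median turned to 0.22 without skin S-PRT 4. DNA repair genes stood at -0.087 and -0.041, and their skin median turned to 0.10 without skin S-PRT 4. Oxidative phosphorylation genes stood at -0.066 and 0.003, with a skin median of 0.06 without skin S-PRT 1.

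Of the 31 genes looked up as a panel, 29 were measured in both tissues, and 16 of these had the same sign in skin and bone. An unadjusted p under 0.05 was found for 0 of the 29 in skin and for 4 in bone, namely Ifit3, Isg15, Krt1 and Krt14, which were also the 4 with such a p for the interaction. Over all genes tested these shares were 5.03% in skin, 3.27% in bone and 4% for the interaction. For 16 of the 29 the interaction interval stayed within 2-fold either way. Wide intervals remained for Col1a1 (-1.48 to 1.69), whose level in skin S-PRT 4 was 69.9 CPM, and for Mki67, a proliferation marker (-1.23 to 0.60).

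**Figure D5:**
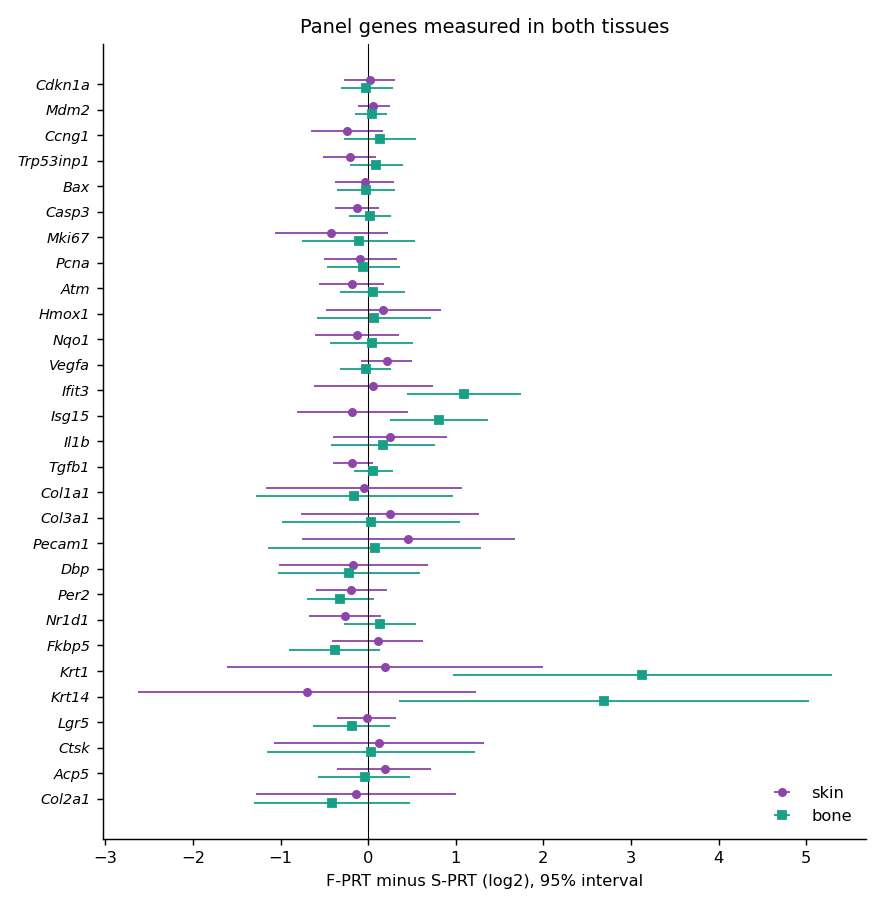
F-PRT minus S-PRT log2 difference with its 95% interval for the 29 panel genes measured in both tissues, skin as circles and bone as squares. Ifit3, Isg15, Krt1 and Krt14 have bone intervals above 0, and no skin interval of the 29 excludes 0.

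Epidermal genes were found in bone at low levels that differed between libraries. The 29 keratinocyte differentiation genes summed to 15.2, 385, 72.7 and 147 CPM in F-PRT bone and 24.9, 15.6, 21.4 and 74.7 CPM in S-PRT bone, against 17785 to 38256 CPM in irradiated skin. F-PRT bone 2 and 4 were above all S-PRT libraries and F-PRT 1 below all of them. Krt1, a keratin of differentiating epidermis, was at 0, 32.9, 6.43 and 5.21 CPM in F-PRT bone and 0.344, 0.275, 0.361 and 4.09 CPM in S-PRT bone. Perp, a desmosome gene and p53 target whose interaction p was smallest in the p53 list, followed it, at 1, 16, 3.82 and 8.5 CPM and 0.974, 0.688, 1.57 and 4.16 CPM. Endothelial genes had a skin median of 0.383 with all 26 higher, and of -0.00 without skin S-PRT 4. Muscle genes had a skin median of -1.47, which became 0.45 without skin S-PRT 1, and hair follicle genes one of -1.02, which became 0.06 without skin S-PRT 1 and 4. Tchh, a protein of the inner root sheath, was at 364 CPM in skin S-PRT 1 and 51.3 CPM in S-PRT 4, and at 5.93 to 18.4 CPM in the other 6 irradiated skin libraries.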

How the data were processed

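RNA was sequenced in 24 libraries (paired reads of 150 bp), and the 16 irradiated ones were fitted. The authors deposited 1 table of RSEM expected counts per gene and library, per the file headers, neither scaled nor pooled. Build GRCm38 and the tools STAR, RSEM, cutadapt and FastQC are listed in the submitters' processing notes, which give no versions, and the labels give neither annotation release nor strand setting. Reads of overlapping or antisense genes therefore cannot be told apart. Gene positions came from GENCODE M21, which held 99.57% of the gene identifiers.

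Expected counts were rounded, filtered with filterByExpr (20146 genes kept), scaled by TMM within each tissue and fitted with edgeR 4.0.16 (R 4.3.3) as one quasi-likelihood model with a mean per group. Benjamini-Hochberg adjustment covered all genes, with a threshold of 0.05. Differences are F-PRT minus S-PRT on the log2 scale, and the interaction is skin minus bone. Intervals are 95% Wald intervals. List levels are means of log2 CPM with a prior count of 2. DESeq2 1.42.0 and limma 3.58.1 (voom) were among 29 alternatives. The fit was tested on simulated data.

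The members and the 36 gene lists were chosen with earlier results of these data known. Named genes were the panel of 31, the 8 of smallest p for the interaction and for the mean of both tissues, the 3 of smallest p in each tissue (at least 2 CPM, without gene models, pseudogenes and antibody or T cell receptor segments), and per list the members of smallest p. Other genes and the interferon roles were chosen after their values were seen.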

Additional observations from a re-analysis of the deposited data

Results flagged for a closer look

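Among 241 sets of 4 libraries (the genes and lists named above, by group), 26 had a highest or lowest library whose gap to its neighbour exceeded Dixon's 95% critical value as a share of the group's range, and chance gives about 1 in 20 such sets. Skin S-PRT 4 was that library in 9 of them. It was low for Pecam1 (1.58 CPM) and the lists of endothelial (-0.35 log2 CPM), macrophage and monocyte (2.64), T cell and NK cell (-0.64) and keratinocyte differentiation genes (7.32). It was high for Krt14, a basal keratin (8518 CPM), Tap1 (167 CPM), and the lists of basal keratinocyte (10.00 log2 CPM) and DNA repair genes (4.17). Skin S-PRT 1 was high for Tchh (364 CPM) and apart for Serinc5 (98.4 CPM).

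In the S-PRT bone group, replicate 2 stood apart for Ifit3 (14.4 CPM), Neurl3 (24.1 CPM), Ccdc62 (5.99 CPM) and the macrophage and monocyte list (5.45 log2 CPM). Replicate 4 of that group was high for Krt1 (4.09 CPM) and Krt14 (4.03 CPM) and apart for Smarca2 (110 CPM), and replicate 3 was apart for Serinc5 (126 CPM). In F-PRT bone, replicate 3 was apart for Serinc5 (87.6 CPM) and replicate 2 for Ifngr1 (247 CPM). In F-PRT skin, replicate 4 was apart for Tchh (18.4 CPM) and the endothelial (3.94 log2 CPM) and hair follicle lists (3.01), replicate 2 for the DNA repair list (3.61) and replicate 1 for Ogfr (12.8 CPM).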

How the results depend on the processing

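The interaction had 0 adjusted calls under every alternative run, and the mean of both tissues had 0 under all but DESeq2, which called 3 (Igha, Adh7 and 1 antisense gene model). In skin DESeq2 called 1 gene, Hcar1, and leaving out single libraries gave 0 to 1 calls, the 1 being Sfrp4 without skin S-PRT 4 (-0.81, adjusted p = 0.0402, edgeR). In bone DESeq2 called 1 gene, no filter on low counts 1 and leaving out skin S-PRT 1 and 4 together 1, Igha each time. Leaving out skin S-PRT 4 with bone F-PRT 2 and 3 gave 2 bone calls, Igha and Ighv8-12, and leaving out single libraries gave 0 to 3, the most without bone F-PRT 1 (Grhl3, Flg and Igha). Limma voom with library weights called 0 in all 4 comparisons.

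The share of genes with the same sign in skin and bone was 45.9% to 53.9% and r -0.133 to 0.169 on leaving out single libraries. The share was 52.3% with a skeletal muscle covariate, 46.8% without the 3 libraries named above and 47% without skin S-PRT 1 and 4, where r was -0.098. Interferon genes higher in F-PRT skin numbered 4 to 33 of 44 on leaving out single libraries, 8 with voom, 4 without the 3 libraries and 6 without skin S-PRT 1 and 4. The count of these members was an alternative chosen after seeing the data. The bone count of these members with an unadjusted p under 0.05 was 17 to 35 on leaving out single libraries, 35 with voom and 36 with the tissues fitted apart. The interferon medians over 21 alternatives were 0.42 to 0.54 in bone and -0.77 to -0.42 for the interaction.

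Replicate numbers are shared between groups without a stated common animal. Same-numbered skin and bone libraries of a beam correlated at -0.155 to 0.307, and 3 of 8 matched best with their own number, so the numbers were not taken as pairs. With the number as a replicate block within each tissue, adjusted calls were 0 in all 4 comparisons, 51.9% of genes had the same sign and r was 0.081. With beam and number together, across tissues, as a replicate block the interaction again had 0 calls. Depth limits genes of low count, such as the interferon ligands and the epidermal genes of bone.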
